A study of Mus musculus with 28 samples.

Results

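Mitochondrial ribosomal proteins were followed across 28 microarrays of mouse cortex, as every transcript cluster (row) whose only annotated gene symbol begins with Mrpl or Mrps and a number. The rule found 79 rows of 65956 tested, 1 for each of 79 symbols, with 49 of the large subunit (Mrpl) and 30 of the small subunit (Mrps). They comprise 75 protein-coding genes and 4 symbols of pseudogenes, Mrpl23-ps1, Mrpl48-ps, Mrps36-ps1 and Mrps36-ps2. Of 78 protein-coding genes that RefSeq lists under such symbols, 3 were not among them because their rows list a second gene as well, namely Mrpl30, Mrpl53 and Mrps6. The gene Mrpl58 was found through its older name, Ict1.

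The arrays came from 4 groups of 7 mice aged 12 to 15 weeks, females and males together, in every combination of 2 genotypes (WT for wild type, KO for knockout of Rbm5) and 2 procedures. Rbm5 encodes an RNA-binding protein that acts in splicing. Injured animals had a craniotomy over the left parietal cortex and a controlled cortical impact (CCI, 6 m/s, 1.2 mm deep), whereas sham animals were anaesthetised without a craniotomy, so an injury change covers both the opening of the skull and the impact. Cortical tissue was taken 48 h later. The strain and the construction of the knockout are not given in the sources used here. Values are log2 signal as deposited, given as mean ± SD of 7 arrays or as the lowest, the median and the highest array, and a row was called at an adjusted p under 0.05 in limma over all tested rows. The number of arrays limits the precision of every value.

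Mitochondrial ribosomes translate the few mRNAs of the mitochondrial genome, all of which encode subunits of the oxidative phosphorylation complexes. Their rRNAs are made inside the organelle, but all of their proteins are encoded in the nucleus, translated in the cytosol and imported. Some of these proteins have a counterpart in bacteria and others were added in the course of mitochondrial evolution. The large subunit carries the peptidyl transferase centre while the small subunit decodes the mRNA. The nuclear respiratory factors NRF1 and NRF2 (the ETS factor GABP) and YY1 are known regulators of genes for mitochondrial proteins, and neurons depend strongly on oxidative phosphorylation.

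Rbm5 was lower on all 14 KO arrays than on any WT array, with group means of 9.76 and 9.75 against 10.78 and 10.66, as a check of the genotype labels. A probe outside a deleted part can still give signal. The mean log2 level of 10 neuronal markers, which should mark cortex, lay between 13.9 and 13.96 in WT sham against 13.55 and 13.9 in WT CCI, and between 13.83 and 13.93 in KO sham against 13.54 and 13.66 in KO CCI, and 5 of the 10 were called lower after injury in each genotype. Of 7 markers of cortical excitatory neurons, 5 were called lower in WT and 6 in KO. The mean level of 9 microglia and macrophage markers lay between 7.39 and 7.56 in WT sham against 8.55 and 9.59 in WT CCI, and between 7.52 and 7.80 in KO sham against 8.60 and 9.33 in KO CCI, with 7 of 9 called higher in each genotype. The mean of 7 oligodendrocyte markers was 10.22 ± 0.185 in WT sham against 10.91 ± 0.0926 in WT CCI, and 10.51 ± 0.240 in KO sham against 10.58 ± 0.391 in KO CCI, with 5 called higher in WT and 1 in KO. The mean of 8 striatum markers reached 10.09 in WT CCI and 10.42 in KO CCI against at most 8.06 in WT sham and 8.73 in KO sham, and an earlier analysis of these data set apart 7 arrays by their striatum or choroid plexus markers (number 25 of WT sham, numbers 13, 14, 16 and 35 of WT CCI, numbers 22 and 40 of KO CCI). The injury counts of the mitochondrial ribosomal proteins as a whole are therefore also given without those 7. The counts by subunit, by bacterial ancestry and of other gene lists are not. In tissue of mixed cells, fewer cells of a type and less RNA per cell cannot be told apart, and the part of these shifts in the values of the mitochondrial ribosomal proteins was not tested.

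Promoters are shown first, because many genes of this family share motifs there. RefSeq promoters (GRCm38.p6, 250 bases before to 50 after the start) were matched for 66 members, with 72 promoters in all. The ETS motif CCGGAAG, searched on both strands, was present in 34.7% of these promoters and in 8.86% of all 32851 promoters. The YY1 motif AAGATGG was present in 18.1% against 6.34%, and the NRF1 motif (GCGC, then AT, then GCGC) in 4.17% against 0.971%. At least 1 of the 3 was found in 36 of the members' 72 promoters, in 15.3% of all promoters and in 45.5% of the promoters of cytosolic ribosomal protein genes. Their median GC content was 58.5%, against 52.7% over all promoters, and no adjustment was made for it. A match is a description of the letters, not a binding site. The 250 bases before the start are given below for the large subunit gene that rose most (Mrpl52), the small subunit gene that rose most (Mrps18c), a riser with no match (Mrpl24), a large subunit gene that fell in both genotypes (Mrpl3) and the 1 gene that differed by genotype (Mrpl17). Capitals mark the ETS motif or its reverse complement CTTCCGG and, in Mrpl52, also the YY1 motif AAGATGG.
Mrpl52, chr14:54426659-54426908, plus strand: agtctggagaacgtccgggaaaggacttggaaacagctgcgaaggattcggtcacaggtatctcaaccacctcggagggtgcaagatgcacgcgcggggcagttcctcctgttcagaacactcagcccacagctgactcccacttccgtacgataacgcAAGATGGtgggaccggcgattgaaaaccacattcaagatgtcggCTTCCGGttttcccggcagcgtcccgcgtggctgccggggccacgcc
Mrps18c, chr5:100798509-100798758, plus strand: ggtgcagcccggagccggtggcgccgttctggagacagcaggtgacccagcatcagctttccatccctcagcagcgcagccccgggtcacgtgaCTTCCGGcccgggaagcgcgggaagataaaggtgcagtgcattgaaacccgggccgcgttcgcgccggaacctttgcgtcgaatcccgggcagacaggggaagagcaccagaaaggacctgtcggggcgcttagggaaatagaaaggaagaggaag
Mrpl24, chr3:87919294-87919543, plus strand: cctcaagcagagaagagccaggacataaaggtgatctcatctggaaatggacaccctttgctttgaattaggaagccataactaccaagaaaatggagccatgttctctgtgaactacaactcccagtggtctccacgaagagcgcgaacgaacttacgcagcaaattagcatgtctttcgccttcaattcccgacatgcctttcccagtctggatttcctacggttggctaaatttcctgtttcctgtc
Mrpl3, chr9:105053018-105053267, plus strand: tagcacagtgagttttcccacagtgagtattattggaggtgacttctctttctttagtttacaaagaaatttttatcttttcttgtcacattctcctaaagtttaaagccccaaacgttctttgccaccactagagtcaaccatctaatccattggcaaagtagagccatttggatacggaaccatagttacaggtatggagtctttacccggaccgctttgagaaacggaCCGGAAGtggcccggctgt
Mrpl17, chr7:105811088-105811337, minus strand: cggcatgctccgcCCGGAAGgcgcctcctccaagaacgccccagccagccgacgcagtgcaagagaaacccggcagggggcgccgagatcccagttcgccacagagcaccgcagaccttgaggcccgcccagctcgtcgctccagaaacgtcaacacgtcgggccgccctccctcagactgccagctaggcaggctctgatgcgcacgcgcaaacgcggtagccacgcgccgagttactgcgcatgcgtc
In Mrpl52 the first base of the YY1 match lies at -91 and that of the ETS match at -47, counted from the start, with a further ETS match at 3 beyond the printed stretch. The ETS matches begin at -156 in Mrps18c, at -19 in Mrpl3 and at -237 in Mrpl17. Among genes called after injury in either genotype, an ETS match was found for 2 of 7 matched genes that rose and 3 of 4 that fell, against 37.9% of the 66 matched genes. Per promoter that is 22.2% and 42.9%, since Mrpl48 has its match in 1 of 4 promoters.

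The first question was how the injury changed this gene family. In WT cortex 8 of the 79 rose and 3 fell, so that 13.9% were called, against 16.8% of all tested rows (8.86% higher, 7.96% lower) and 28.1% of the rows brighter than the median. Those that rose were Mrpl52, Mrpl24, Mrps18c, Mrpl41, Mrps15, Mrpl2, Mrpl20 and Mrpl13, by 0.12 to 0.35 on the log2 scale, and those that fell were Mrps30, Mrpl3 and Mrpl48, with log2 changes of -0.15 to -0.19. In KO cortex 4 rose (Mrpl52, Mrps18c, Mrps15 and Mrpl24) and 6 fell (Mrps36-ps2, Mrpl48, Mrps30, Mrpl3, Mrpl58 and Mrps35), which is 12.7% against 16.7% of all rows (8.43% higher, 8.27% lower). These shares are near those of all rows, but below those of rows brighter than the median, 28.1% in each genotype. Of the 79, 75 had a mean signal at or above that median. The median change of the 79 was 0.047 in WT and -0.021 in KO, where all tested rows had medians of -0.023 and 0.012. Rows brighter than the median signal had median changes of -0.020 in WT and -0.014 in KO.

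These counts depend on how arrays are put on a common scale. With each array centred on its median, 5 rose and 4 fell in WT, but in KO only 1 rose (Mrpl52) and 13 fell. The shares called were then 11.4% in WT, against 16.7% of all rows, and 17.7% in KO, against 17.6%. Quantile normalization gave 7 higher and 4 lower in WT and 6 higher and 2 lower in KO, so the balance of directions in KO is not settled. Its shares called were 13.9% in WT, against 17.1% of all rows, and 10.1% in KO, against 16.1%. Without the 7 arrays 8 rose and 1 fell in WT (11.4%, against 13.6% of all rows). In KO 3 rose and 3 fell (7.59%, against 14.5%). However, 8 of the 11 WT calls and 4 of the 10 KO calls were lost there. Those kept were Mrpl52, Mrpl24 and Mrps15 in both genotypes and Mrps30, Mrpl3 and Mrpl48 in KO. All 22 calls named here, the genotype call of Mrpl17 included, had the same sign within the arrays titled 1 to 24 and within those titled 25 to 42. The size of the changes is better defined than their balance. In WT the 95% interval of each of the 79 changes lay within 0.5 of zero on the log2 scale, and 57 lay within 0.25. In KO those numbers were 78 and 60, Mrpl52 being the exception to the wider bound. The median size of change, without its sign, was 0.080 in WT and 0.059 in KO for the 79, and 0.123 and 0.127 for rows brighter than the median.

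**Figure D1:**
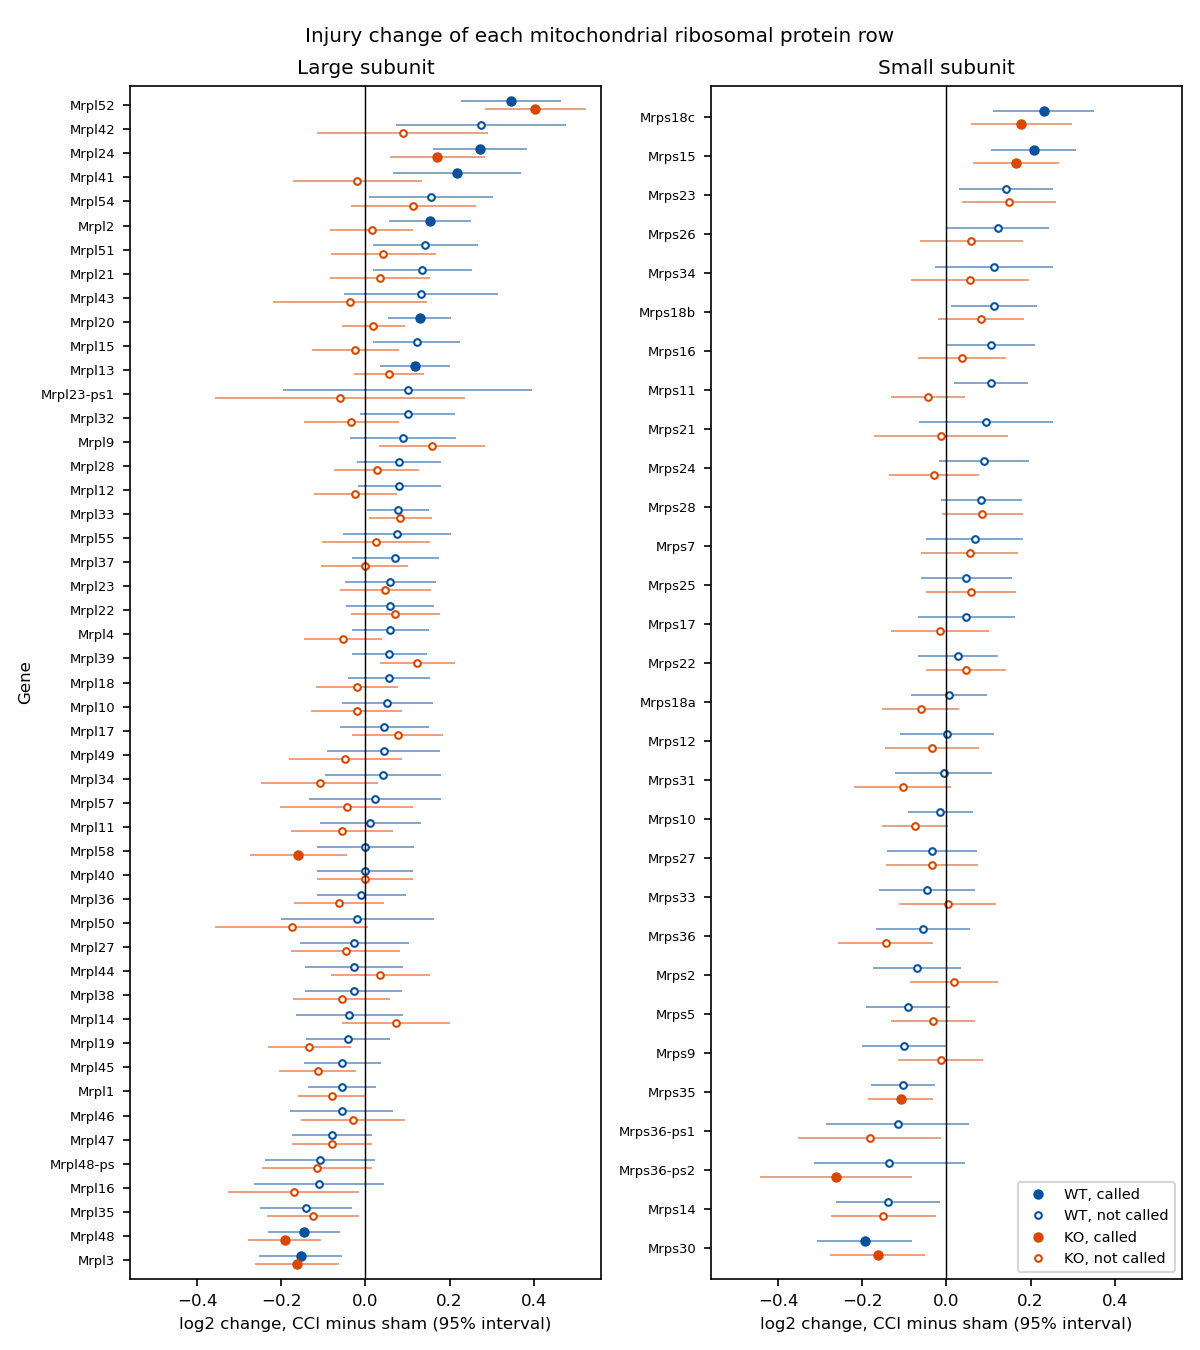
Log2 change with injury (CCI minus sham, 7 arrays a group) of each of the 79 rows, with 95% intervals, for the 49 of the large subunit (left) and the 30 of the small subunit (right), sorted by the WT change. Blue is WT and orange KO, and filled points are called (limma adjusted p under 0.05). Mrpl52 lies apart at the top left at 0.35 in WT and 0.40 in KO, and most other intervals cross zero.

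Among the large subunit genes, Mrpl52 changed most. It encodes a protein of the mitochondrial large subunit without a bacterial counterpart. Its signal (chromosome 14) was 6.65, 6.86 and 6.90 (lowest, median and highest) in WT sham and 7.02, 7.15 and 7.38 in WT CCI. In KO it was 6.64, 6.80 and 6.91 after sham and 7.14, 7.18 and 7.30 after injury. Every injured array thus lay above every sham array of its genotype. Mrpl52 rose 1.27-fold in WT (log2 change 0.35, SE 0.058, adjusted p = 6.36e-05) and 1.32-fold in KO (0.40, SE 0.059, adjusted p = 1.15e-05), and it kept both calls when any single array was left out. Within the arrays titled 1 to 24 the changes were 0.26 and 0.46, and within those titled 25 to 42 they were 0.46 and 0.34 (adjusted p = 0.0514 in KO).

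Mrpl24, a large subunit protein with a bacterial counterpart, was the other clear riser. On chromosome 3, its signal was 8.56, 8.63 and 8.72 in WT sham and 8.74, 8.88 and 9.03 in WT CCI, with no overlap. KO arrays gave 8.48, 8.63 and 8.76 after sham and 8.63, 8.81 and 8.92 after injury, which overlap. The rise was 1.21-fold in WT (log2 change 0.27, SE 0.054, adjusted p = 0.000483) and 1.13-fold in KO (0.17, SE 0.054, adjusted p = 0.0289). In KO the call was lost without any one of KO sham 9, 10 and 12 or KO CCI 21, 22 and 24 (adjusted p up to 0.0763), and the KO change was 0.27 in arrays 1 to 24 but 0.03 in arrays 25 to 42.

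A further 4 large subunit genes rose in WT only by their own test. Mrpl2, whose bacterial counterpart lies next to the peptidyl transferase centre, rose from 8.65 ± 0.0707 to 8.80 ± 0.0877 (adjusted p = 0.0242), with 5 of 7 injured arrays above every sham array. Mrpl20 rose from 6.71 ± 0.0525 to 6.84 ± 0.0471 (adjusted p = 0.0125) and Mrpl13 from 7.23 ± 0.0618 to 7.35 ± 0.053 (adjusted p = 0.0439), each with 6 of 7 injured arrays above the sham range. Mrpl41, without a bacterial counterpart, rose from 5.67 ± 0.142 to 5.88 ± 0.101 (adjusted p = 0.0432) at a mean signal below the median of the negative control rows (6.57), so its fold is not exact. In KO their log2 changes were 0.01, 0.02, 0.06 and -0.02, none called. The difference between the genotypes' injury changes was not called for any of the 4, with adjusted p from 0.78 to 0.878, so these data do not show a response of WT alone. No single array decided the call of Mrpl20. That of Mrpl2 was lost without WT sham 26, WT CCI 13 or WT CCI 34 (adjusted p up to 0.0647). Mrpl13 lost it without any one of WT sham 1, 2, 4 and 27 or WT CCI 13, 14, 15, 34 and 35 (up to 0.112), and Mrpl41 without any one of WT sham 2, 3, 4, 26 and 27 or WT CCI 13, 14, 15, 34, 35 and 36 (up to 0.121).

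The large subunit genes that fell did so by little. Mrpl48, a protein specific to the mitochondrial ribosome, lay at 8.83, 8.89 and 8.99 in WT sham and at 8.68, 8.75 and 8.79 in WT CCI, which do not overlap. In KO its values were 8.77, 8.94 and 9.04 after sham and 8.62, 8.78 and 8.82 after injury, with 3 injured arrays below the sham range. It fell by 0.15 on the log2 scale in WT (SE 0.042, adjusted p = 0.0139) and fell by 0.19 in KO (SE 0.042, adjusted p = 0.00147), and no single array decided either call. Mrpl3, a protein near the peptidyl transferase centre, was 9.59, 9.64 and 9.82 in WT sham and 9.36, 9.53 and 9.64 in WT CCI. Its KO arrays lay at 9.50, 9.60 and 9.72 after sham and at 9.34, 9.41 and 9.57 after injury. The groups overlapped in both genotypes, and Mrpl3 fell by 0.15 in WT (SE 0.048, adjusted p = 0.0263) and fell by 0.16 in KO (SE 0.049, adjusted p = 0.0187). Its WT call was lost without WT sham 26, WT sham 27 or WT CCI 35 (adjusted p up to 0.0751), and its KO call without KO sham 11 (adjusted p = 0.0625). Mrpl58, a peptidyl-tRNA hydrolase within the large subunit that rescues stalled ribosomes, was 8.74 ± 0.0899 and 8.74 ± 0.0825 in WT sham and CCI. In KO it was 8.83 ± 0.116 and 8.67 ± 0.0974 (adjusted p = 0.0495), at the edge of the threshold, and leaving out any one of 20 arrays ended that call (adjusted p up to 0.13), the exceptions being WT sham 25, WT CCI 13, 16 and 35, KO sham 9 and 10 and KO CCI 24 and 42.

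In the small subunit, Mrps18c rose most. It is 1 of 3 mammalian genes related to the same bacterial small subunit protein, with Mrps18a and Mrps18b. Its signal (chromosome 5) was 7.89, 7.98 and 8.10 in WT sham and 8.12, 8.22 and 8.41 in WT CCI, without overlap. KO sham arrays lay at 7.80, 8.16 and 8.25 and KO CCI arrays at 8.21, 8.26 and 8.42, with 5 of the injured arrays above the sham range. The rise was 1.17-fold in WT (log2 change 0.23, SE 0.058, adjusted p = 0.00518) and 1.13-fold in KO (0.18, SE 0.059, adjusted p = 0.0357). KO sham 10, at 7.80, was the lowest array of all, and the KO call was lost without any one of KO sham 10 and 12 or KO CCI 21 and 22 (adjusted p up to 0.0882). Without the 7 arrays the WT change was 0.21 and no longer called (adjusted p = 0.1). Mrps18a and Mrps18b were not called in either genotype.

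Mrps15, whose bacterial counterpart binds the small subunit rRNA early in assembly, lay at 8.67, 8.75 and 8.92 in WT sham and at 8.82, 8.97 and 9.11 in WT CCI. In KO the values were 8.71, 8.78 and 8.87 after sham and 8.84, 8.97 and 9.10 after injury. In both genotypes 5 of 7 injured arrays exceeded the sham range. Mrps15 rose 1.15-fold in WT (log2 change 0.21, SE 0.049, adjusted p = 0.003) and 1.12-fold in KO (0.17, SE 0.049, adjusted p = 0.0191), and both calls held without any single array.

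Mrps30 had the largest fall of the 79 in WT. Despite its symbol, structures of the mammalian ribosome place the protein in the large subunit. Its signal (chromosome 13) was 8.02, 8.24 and 8.37 in WT sham and 7.90, 8.05 and 8.18 in WT CCI. In KO the values were 8.12, 8.17 and 8.35 after sham and 7.91, 8.05 and 8.18 after injury. The ranges overlapped in both genotypes. Mrps30 fell by 0.19 on the log2 scale in WT (SE 0.055, adjusted p = 0.0128) and fell by 0.16 in KO (SE 0.055, adjusted p = 0.0406). In KO the call was lost without any one of KO sham 10, 12, 32 and 33 or KO CCI 21, 23, 40 and 42 (adjusted p up to 0.104). Mrps35, a small subunit protein without a bacterial counterpart, was 7.18 ± 0.0416 in KO sham and 7.07 ± 0.0494 in KO CCI (log2 change -0.11, adjusted p = 0.0426), with every injured array below every sham array. In WT its change was of like size (-0.10) and missed the threshold (adjusted p = 0.0541). The KO call was lost without any one of KO sham 9, 10, 11, 12, 31 and 32 or KO CCI 21, 22, 24, 41 and 42 (adjusted p up to 0.108).

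The row of the pseudogene Mrps36-ps2 fell by 0.26 in KO (SE 0.088, adjusted p = 0.0393), from 8.37 ± 0.113 to 8.11 ± 0.165, a call lost without any one of KO sham 9, 11, 12, 31 and 33 or KO CCI 21, 22, 23, 40 and 41 (adjusted p up to 0.109). The KO changes of Mrps36 itself and of Mrps36-ps1 were -0.14 (adjusted p = 0.0751) and -0.18 (adjusted p = 0.148). Gene and pseudogenes may be alike enough for their probes to hybridise to one another's RNA, though their sequences were not compared here. Which transcript gave the signal is therefore uncertain, and the same holds for Mrpl48 and Mrpl48-ps. Mrps36 is also known as a subunit of the oxoglutarate dehydrogenase complex rather than of the ribosome.

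**Figure D2:**
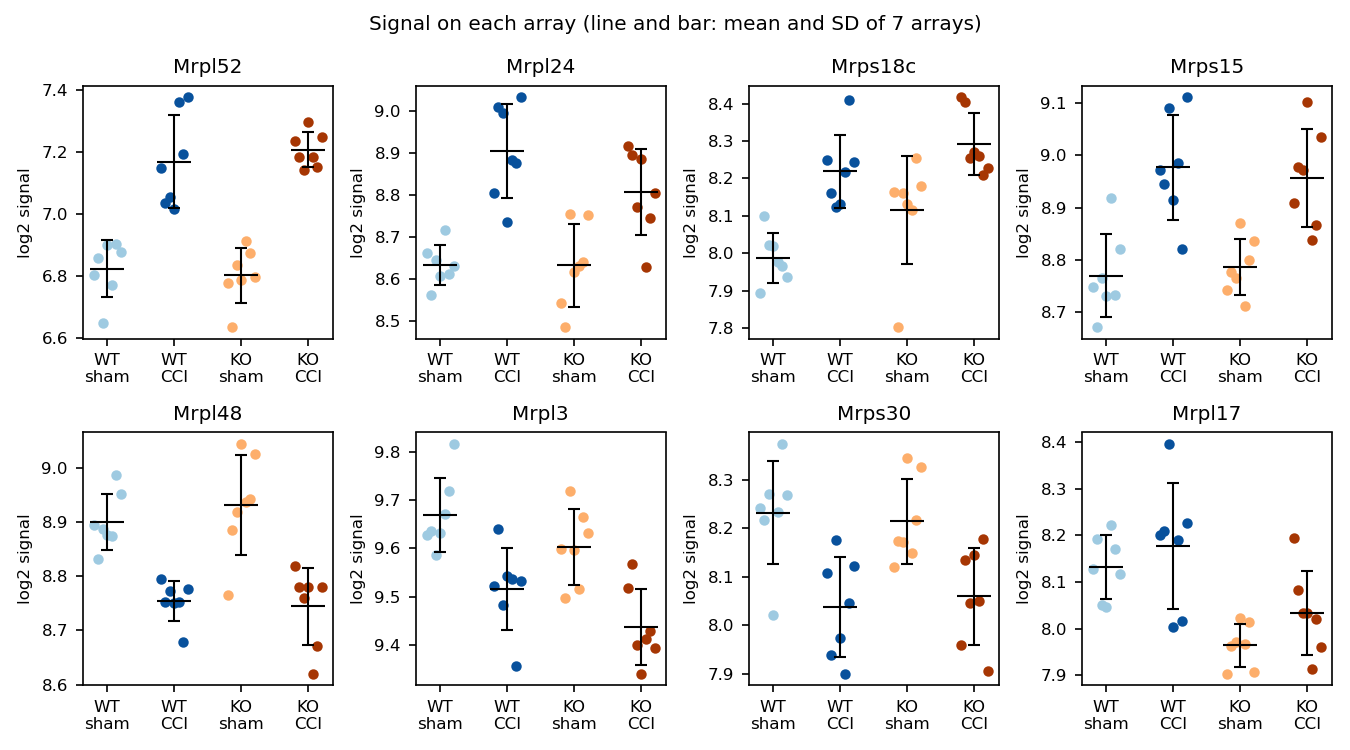
Log2 signal on each of the 28 arrays for the 7 genes called after injury in both genotypes and for Mrpl17, by group, with the mean and SD of 7 arrays. Axes differ between panels and do not start at 0. Injured arrays sit above sham arrays without overlap for Mrpl52 in both genotypes, and Mrpl17 is lower in KO sham than in WT sham.

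The 2 genotypes called overlapping sets. A total of 7 genes were called in both (Mrpl52, Mrpl24, Mrps18c, Mrps15, Mrpl48, Mrpl3 and Mrps30), each in 1 direction, which is 63.6% of the WT calls and 70.0% of the KO calls, where over all tested rows 68.2% and 68.6% were shared. Over all 79 rows, 55 (69.6%) had the same sign in both genotypes, against 67.1% of all tested rows and 78.0% of those brighter than the median. The 79 changes had a Pearson r of 0.778 and a Spearman rho of 0.724 across genes, which are not independent replicates and share each array, and all tested rows had 0.843 and 0.603. Rows brighter than the median signal had 0.905 and 0.789, above the 79 on both measures. Those rows shared 72.5% of their WT calls and 72.6% of their KO calls. Of the 79, 65 were called in neither genotype. In WT the groups did not overlap for Mrpl24, Mrpl52 and Mrps18c, which were higher after injury, and for Mrpl48, which was lower, where 7.26% of all rows had no overlap (4.44% higher, 2.82% lower). In KO this held for Mrpl52 and Mrps35, against 6.38% of all rows (3.51% higher, 2.87% lower). One uncalled gene had a WT change as large as the risers, Mrpl42 at 0.27 (95% interval 0.07 to 0.48, adjusted p = 0.0561), named here after its value was seen.

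The large and small subunits were then set side by side. In WT 6 of the 49 large subunit rows rose and 2 fell, with a median change of 0.056, and 2 of the 30 small subunit rows rose and 1 fell, with a median of 0.017. In KO the large subunit had 2 higher and 3 lower (median -0.024) and the small subunit 2 higher and 3 lower (median -0.014). Those small subunit counts include Mrps30, which fell in both genotypes, and in KO Mrps36-ps2. With Mrps30 and Mrps18a counted in the large subunit, as in structures, and the 3 Mrps36 rows left out, 6 of 51 large subunit rows rose and 3 fell in WT (median 0.052) and 2 of 25 small subunit rows rose and 0 fell (median 0.048). In KO that assignment gave 2 higher and 4 lower in the large subunit (median -0.024) and 2 higher and 1 lower in the small subunit (median 0.003). The subunit counts also depend on the scale. By symbol, centred arrays gave 1 higher and 7 lower in the large subunit in KO, and 0 higher and 6 lower in the small. Quantile normalization gave 3 higher and 1 lower in each subunit in KO. In WT centred arrays gave 3 higher and 2 lower in the large subunit and 2 higher and 2 lower in the small. For each array the members of a subunit were also averaged after centring each row on its WT sham mean. The large subunit mean then stood at 0.047 ± 0.048 in WT CCI, while KO sham and KO CCI gave 0.038 ± 0.052 and 0.028 ± 0.048, with an SD of 0.036 in WT sham. Corresponding small subunit means were 0.017 ± 0.035, 0.024 ± 0.055 and 0.009 ± 0.026, with an SD of 0.021 in WT sham. Each of these group means was within about the spread of single arrays, and with arrays centred on their medians the small subunit mean of KO CCI was -0.021. The difference of the subunits, large minus small, was 0.030 ± 0.019 in WT CCI, while KO sham and KO CCI gave 0.015 ± 0.026 and 0.019 ± 0.030, against an SD of 0.023 in WT sham. It was above zero on all 7 WT CCI arrays (0.014 to 0.064), but WT sham arrays reached 0.017, so the groups overlap. With the assignment by structure it was 0.001 ± 0.023 in WT CCI, and KO sham and KO CCI gave 0.013 ± 0.024 and -0.017 ± 0.034, so the offset in WT CCI depends on where Mrps30, Mrps18a and the Mrps36 rows are put. No p is given for such averages, since the genes were chosen with results of these data known. The counts were also split by bacterial ancestry. Genes were assigned mainly by the number in their symbols, not by sequence, so single genes may be misplaced. Of 45 genes with a bacterial counterpart 6 rose and 1 fell in WT and 3 rose and 1 fell in KO (15.6% and 8.89% called). Of 30 without one 2 rose and 2 fell in WT and 1 rose and 4 fell in KO (13.3% and 16.7%). All rows had 16.8% and 16.7%.

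**Figure D3:**
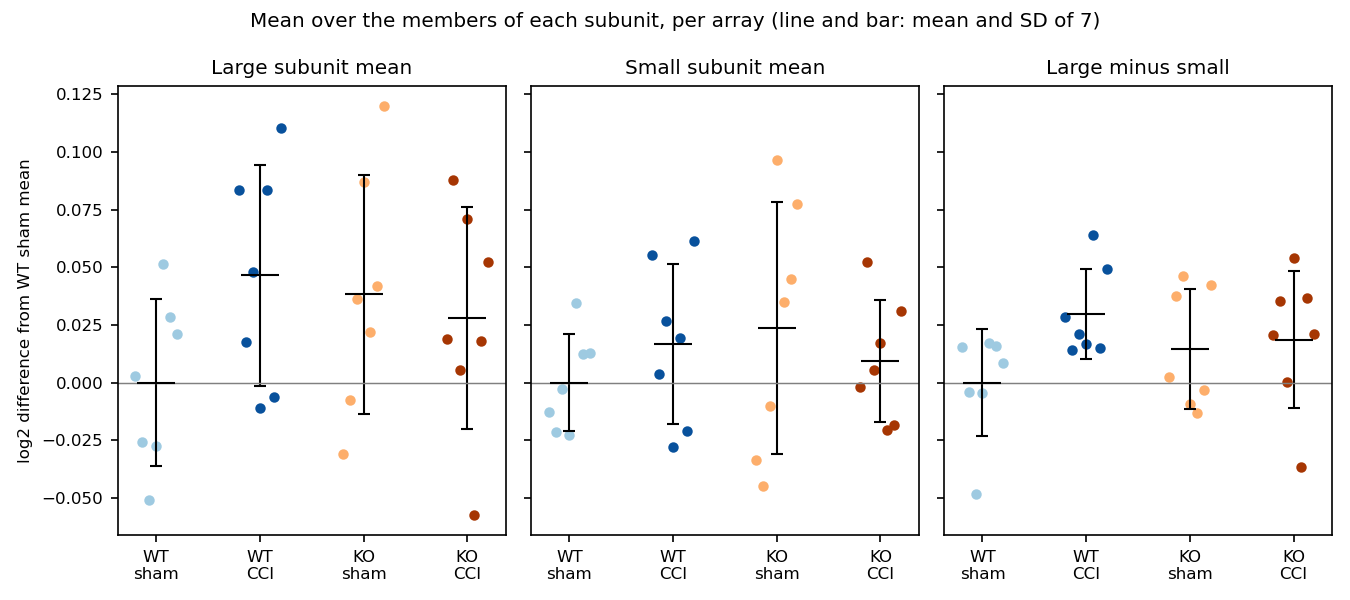
Mean over the 49 large subunit rows (left) and the 30 small subunit rows (middle) and their difference (right), per array, as a log2 difference from the WT sham mean, with the mean and SD of 7 arrays in each group. All groups lie within about 0.12 of zero and overlap.

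The second question was whether loss of Rbm5 changed these genes. After sham none of the 79 differed between KO and WT in limma (5 had an unadjusted p under 0.05), where 1.28% of all rows were called. After injury none differed either (5 unadjusted), against 0.653% of all rows. Over both procedures 1 was called, Mrpl17, against 3.16% of all rows (1.8% lower in KO). The sizes were small, with 95% intervals within 0.25 of zero for 78 of the 79 over both procedures.

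Mrpl17, a large subunit protein with a bacterial counterpart, is encoded on chromosome 7. It lay at 8.05, 8.13 and 8.22 in WT sham and at 7.90, 7.97 and 8.02 in KO sham. After injury it lay at 8.003, 8.201 and 8.396 in WT and at 7.91, 8.03 and 8.19 in KO. KO sham arrays were all below WT sham arrays, as were 0.528% of all rows, whereas the injured groups overlapped for Mrpl17 and for every other member (0.415% of all rows did not). Over both procedures Mrpl17 fell by 0.16 on the log2 scale in KO (SE 0.037, 0.896 times the WT level, adjusted p = 0.0117). That call held without any single array and without the 7 arrays (-0.19, adjusted p = 0.0137). Within arrays 1 to 24 and 25 to 42 alone the differences were -0.13 (adjusted p = 0.386) and -0.20 (adjusted p = 0.361). Injury did not change Mrpl17 beyond the threshold in WT (log2 change 0.05) or KO (0.08).

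The next smallest p values over both procedures belonged to Mrpl32 and Mrps18c. Mrpl32, a large subunit protein that is cut to its mature form by the m-AAA protease, was 6.77 ± 0.146 in WT sham and 6.97 ± 0.064 in KO sham, and 6.87 ± 0.0433 and 6.93 ± 0.0934 after injury (0.13 over both, adjusted p = 0.0791, called without WT sham 25 and among rows above the median mean signal). Mrps18c stood 0.10 higher in KO (adjusted p = 0.268, called without KO sham 10). After sham alone Mrpl41 was 0.21 higher in KO (adjusted p = 0.219). After injury the smallest p values were those of Mrpl17 (-0.14, adjusted p = 0.294), Mrpl34 (-0.17, adjusted p = 0.351) and Mrps24 (-0.13, adjusted p = 0.385).

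Whether the injury acted differently on the 2 genotypes was tested as the difference of the injury changes. In limma no row of the 65956 was called (0.0%), and 4 of the 79 had an unadjusted p under 0.05. Those with the smallest p were Mrps11 (-0.15, KO minus WT, adjusted p = 0.779), Mrpl41 (-0.24, adjusted p = 0.78) and Mrpl20 (-0.11, adjusted p = 0.794). The median of the 79 differences was -0.054, with 59 below zero and 20 above, while over all tested rows the median was 0.018 with 29044 below zero. Rows brighter than the median signal had a median difference of -0.012, with 18002 of 32978 below zero. All 79 estimates share the same 28 arrays, so their signs are not separate observations. A tilt below zero was not particular to the 79. It held for 69 of 81 nuclear oxidative phosphorylation subunits (median -0.10) and 37 of 41 cytosolic ribosomal proteins (median -0.17). All 7 oligodendrocyte markers had differences below zero, with a median of -0.62 and 6 at an unadjusted p under 0.05. So did all 9 microglia and macrophage markers (median -0.30) and all 7 endothelial markers (median -0.20), but only 1 of 7 choroid plexus markers. The part of such cell types in the members' values was not tested. Between the sexes none of the 79 was called (0.487% of all rows) and 2 had an unadjusted p under 0.05. Mrpl34 had the smallest p, at 0.17 higher in females (SE 0.0481, adjusted p = 0.198, called without KO CCI 41), and Mrpl41 and Mrpl10 followed at 0.11 and 0.07 (both adjusted p = 1.0).

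Of 4 measured mitochondrial ribosomal proteins that carry other symbols, none was called after injury or by genotype in limma. One of them, Chchd1, had an unadjusted p under 0.05 in each injury comparison. Dap3, a GTP-binding small subunit protein, was 8.84 ± 0.0585 in WT sham and 8.89 ± 0.0675 in WT CCI, and in KO 8.92 ± 0.0582 and 8.94 ± 0.0743. Ptcd3 went from 10.46 ± 0.0614 to 10.41 ± 0.0443 in WT and Gadd45gip1 from 5.81 ± 0.0935 to 5.82 ± 0.156. Chchd1 came nearest to a call, with changes of 0.19 in WT (adjusted p = 0.0693) and 0.17 in KO (adjusted p = 0.109). The small subunit rRNA, mt-Rnr1, was within 0.1 of the top of the scale (19.93) on 27 of 28 arrays, where a change could not be seen, so no fold is given. Of 5 measured mRNAs of the mitochondrial genome none was called in either genotype in limma (0 and 1 at an unadjusted p under 0.05), and the row named ND3 was likewise within 0.1 of the top on 24 arrays.

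Other genes that serve mitochondrial gene expression were read against the 16.8% (WT) and 16.7% (KO) of all rows that were called. In WT and KO, 7.14% and 7.14% of translation factors, 3.57% and 7.14% of assembly factors and 5.26% and 0.0% of tRNA synthetases were called, against 23.1% and 38.5% of genes of mitochondrial transcription and RNA stability. Of 14 translation factors 1 fell in each genotype, Guf1, a GTPase related to the bacterial elongation factor LepA, by 0.18 in WT (adjusted p = 0.0151) and by 0.23 in KO (adjusted p = 0.002). Of 28 assembly factors 1 fell in WT and 2 in KO, namely Fastkd2, an RNA-binding protein needed for the large subunit rRNA (-0.15, adjusted p = 0.0119 in WT and -0.13, adjusted p = 0.0265 in KO), and in KO Afg3l2, the m-AAA protease subunit that matures Mrpl32 (-0.12, adjusted p = 0.0294). The KO call of Fastkd2 was lost without KO sham 31 or 33 (adjusted p up to 0.0755), and that of Afg3l2 without any one of KO sham 11, 31, 32 and 33 or KO CCI 21, 23 and 40 (up to 0.0591). Of 19 tRNA synthetases only Hars2 was called, lower in WT (-0.15, adjusted p = 0.026), a call lost without any one of WT sham 1 and 3 or WT CCI 13, 16 and 36 (up to 0.0664). Of 13 genes of mitochondrial transcription and RNA stability 2 rose and 1 fell in WT and 1 rose and 4 fell in KO. Slirp, which stabilises mitochondrial mRNAs, rose by 0.45 in WT (adjusted p = 0.00034) with 0.19 in KO (adjusted p = 0.171), and Pnpt1, the mitochondrial polynucleotide phosphorylase, rose by 0.24 and 0.23 (adjusted p = 0.00121 and 0.00235). Polg, the mitochondrial DNA polymerase, fell in WT (-0.12, adjusted p = 0.0266) and in KO (-0.11, adjusted p = 0.0391), while Mterf2 (-0.24, adjusted p = 0.0447) and Tfb2m (-0.16, adjusted p = 0.0392) fell in KO. The WT call of Polg was lost without any one of WT sham 3 and 4 or WT CCI 34, 35 and 36 (adjusted p up to 0.069). Tfb2m lost its call without any one of KO sham 10, 11, 31, 32 and 33 or KO CCI 21, 23, 24, 40 and 41 (up to 0.0992). Mterf2 lost it without any one of WT sham 1, 26 and 27, WT CCI 14 and 16, KO sham 9, 10, 11 and 33 or KO CCI 21, 22, 24, 40 and 41 (up to 0.106).

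By genotype, 2 of 14 translation factors stood higher in KO over both procedures and were picked out after their values were seen. That is 14.3%, against 3.16% of all rows called. Of 28 assembly factors 1 was called higher and 1 lower (7.14%). Of 13 genes of mitochondrial transcription and RNA stability 1 was called higher (7.69%), and of 19 tRNA synthetases 1 lower (5.26%). The assembly factor and the gene of transcription and RNA stability that were higher are not named, whereas the 2 translation factors are. Guf1 was 9.38 ± 0.0275 in WT sham and 9.63 ± 0.107 in KO sham, and 9.20 ± 0.102 and 9.40 ± 0.0824 after injury (0.22, SE 0.036, adjusted p = 0.000361), with sham groups that did not overlap. Gfm2, the elongation factor that recycles mitochondrial ribosomes, was 8.73 ± 0.0626 and 8.86 ± 0.0484 after sham and 8.68 ± 0.0667 and 8.81 ± 0.0383 after injury (0.13, SE 0.028, adjusted p = 0.00468). Spg7, the partner of Afg3l2 in the m-AAA protease, was lower in KO on every array of each procedure (-0.13, SE 0.024, adjusted p = 0.0011). Of all rows, 0.528% were lower in KO without overlap after sham, and 0.415% had no overlap in either direction after injury. The tRNA synthetase Iars2 was lower by a like amount (-0.13, SE 0.028, adjusted p = 0.00545).

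Nuclear regulators of mitochondrial biogenesis did not move together. Of 9 measured, 2 rose and 2 fell in WT (44.4% called, against 16.8% of all rows). In KO 3 rose and 2 fell (55.6%, against 16.7%), of which at most 2 per direction are named. Myc, a growth regulator that also acts on mitochondrial biogenesis, rose by 0.62 in WT (SE 0.071, adjusted p = 1.79e-07) and by 0.60 in KO (SE 0.071, adjusted p = 4.74e-07). Gabpa, the ETS subunit of NRF2, rose by 0.15 (adjusted p = 0.0409, lost without any one of WT sham 3, 25, 26 and 27 or WT CCI 14, 15, 16, 34 and 36, up to 0.095) and by 0.18 (adjusted p = 0.0125). Ppargc1a, the coactivator PGC-1 alpha that drives mitochondrial biogenesis, fell by 0.39 in WT (SE 0.067, adjusted p = 9.26e-05) and fell by 0.39 in KO (SE 0.067, adjusted p = 0.00011). Its relative Ppargc1b fell by 0.24 (adjusted p = 0.000574) and fell by 0.32 (adjusted p = 1.6e-05). Nrf1 and Yy1 were not called, with log2 changes of 0.01 and -0.00 in WT and -0.06 and 0.05 in KO.

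Cytosolic ribosomal protein genes gave a different count on the same arrays. Of 41 measured, 34 rose in WT (median 0.463) and 32 in KO (median 0.302) and none fell, and the numbers that rose were 34 and 26 with centred arrays and 34 and 33 after quantile normalization. On the deposited values the shares called were 82.9% and 78.0%, against 16.8% and 16.7% of all rows. Rps26 rose by 1.11 in WT and 0.76 in KO, and Rplp0 by 1.06 and 0.82. Many cytosolic ribosomal protein genes have processed pseudogenes, so their rows may take signal from copies. Among 81 nuclear genes of oxidative phosphorylation, 11 rose and 5 fell in WT (median 0.060) and 1 rose and 7 fell in KO (median -0.035). Their shares called, 19.8% and 9.88%, were near or below those of all rows, and below the 28.1% of rows brighter than the median in each genotype. Atp5g2, a subunit of the ATP synthase ring, rose by 0.74 and 0.48, while the complex I subunits Ndufs1 and Ndufs4 fell in both genotypes. Ndufs1 fell by 0.18 in WT (adjusted p = 0.00442) and by 0.17 in KO (adjusted p = 0.00831), and Ndufs4 fell by 0.15 (adjusted p = 0.0149) and by 0.23 (adjusted p = 0.000333). No test of the difference between these lists and the 79 was made, and the lists were chosen with results known.

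**Figure D4:**
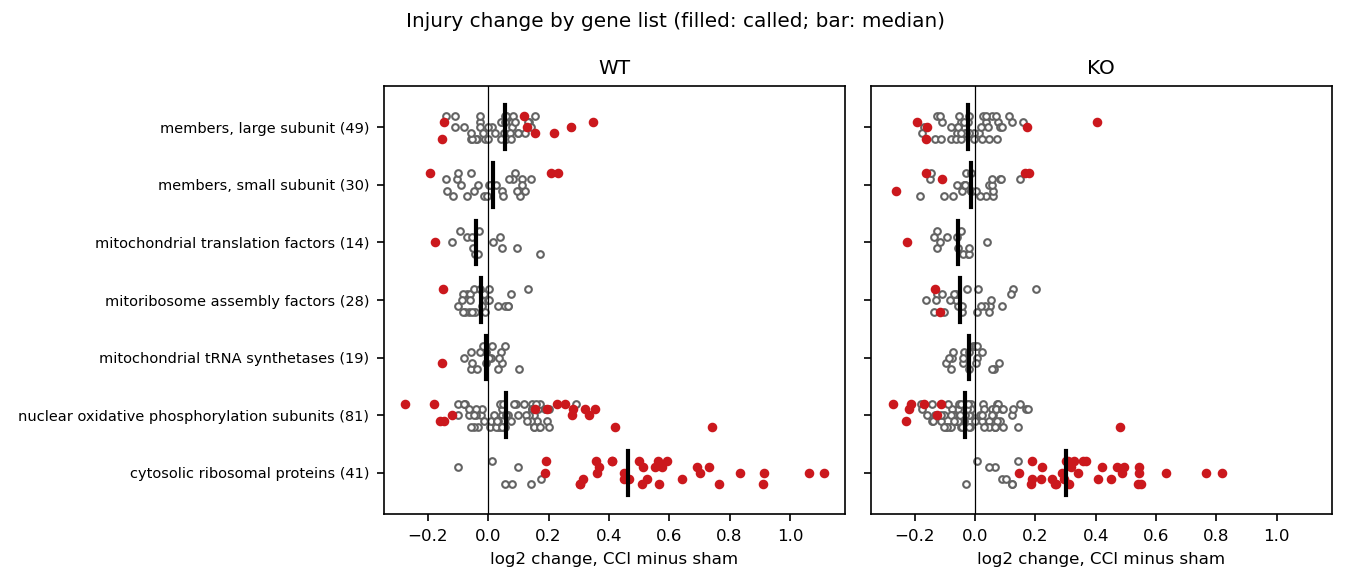
Log2 change with injury of each measured gene in 7 lists, in WT (left) and KO (right). Filled red points are called, open points are not, and bars are medians. Cytosolic ribosomal proteins lie mostly above zero, with medians of 0.463 and 0.302, while both subunits of the mitochondrial ribosome lie close to zero.

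The genomic neighbours of the called genes were also read, since a gene can lie beside a strongly responding one. Mrpl52 lies between Slc7a7, an amino acid transporter subunit, which rose by 1.21 in WT and 0.81 in KO, and Mmp14, a membrane-bound matrix metalloproteinase, which rose by 0.61 and 0.42. Mrps15 lies between Csf3r, the receptor for granulocyte colony-stimulating factor, which rose by 0.89 and 0.70, and Oscp1, with log2 changes of -0.47 and -0.44. Mrpl48 overlaps Rab6a, a Golgi GTPase that is abundant in brain, with changes of -0.28 in both genotypes. Mrpl13 is next to Mtbp, which rose by 0.41 and 0.33. Smaller called changes were those of Hdgf beside Mrpl24 (0.16), Ccnl2 beside Mrpl20 (0.14) and Pnpla7 beside Mrpl41 (0.16), all higher in WT, of Helq beside Mrps18c, lower in both (-0.17 and -0.18), and of Fgf10 beside Mrps30, lower in KO (-0.20). The measured neighbours of Mrpl2, Mrpl3, Mrpl58 and Mrps35 were not called. Whether signal or regulation is shared between such neighbours was not tested.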

How the data were processed

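RNA (100 ng, Trizol) from 28 cortices was labelled with biotin and hybridised to 28 1-colour arrays, per the labels' protocols. The deposited values are log2 signal, 1 per transcript cluster, with array medians of 5.79 to 5.90. The software and normalization behind them are not given in the sources used here, and no further normalization was applied. Of 72688 rows, 6732 controls were left out. Rows were named from the platform annotation, of which 30512 list 1 symbol, 643 list older names of 1 gene, 1503 list several genes (not named), 33206 list none and 92 differ in chromosome.

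All 65956 rows were fitted in limma 3.58.1 (R 4.3.3) with 4 group means and an additive sex term over all 28 arrays, with Benjamini-Hochberg adjustment in each of 7 comparisons. The threshold for a call was an adjusted p of 0.05. The script was tested on simulated data. Groups came from the labels; nothing in them says more of the 7 samples of a group than their titles, so p-values measure the spread between these samples. Title numbers 1 to 24 and 25 to 42 were compared as possible batches, which the labels do not call them.

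Members and lists were chosen with earlier results of these data known. The text names called members (at most 8 per direction), the 3 members with the smallest p where few were called, and up to 2 called genes per direction of each list; other names were chosen after their values were seen, as were the neighbours. Negative control rows (5222) had a median mean signal of 6.57, which 70 of the 79 members exceeded, and a 95th percentile of 10.24, which only Mrpl42 exceeded. Promoters are RefSeq's (GRCm38.p6); the sources used here give no build for the array rows. Alternatives covered scaling, a brightness filter, covariates, array weights, the title ranges, the 7 arrays and each array in turn.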

Additional observations from a re-analysis of the deposited data

Results flagged for a closer look

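In 116 groups of 7 arrays, 10 values lay far from the other 6 of their group, with a gap above 0.568 of the range; chance gives about 1 such group in 20. Mrps18c was 7.80 on KO sham 10, where the next lowest array was 8.12. Mrpl48 was 8.68 on WT CCI 35 (next 8.75), and the pseudogene row Mrps36-ps2 was 7.75 on the same array (next 8.13). Mrpl32 had a low array, WT sham 3 at 6.48 (next 6.74), and a high one, KO sham 32 at 7.10 (next 6.98). Mrpl34 was 7.57 on WT CCI 14 (next 7.72). Ptcd3 was highest on WT CCI 36, at 10.50 (next 10.42). The rRNA row mt-Rnr1, close to the top of the scale, was 19.86 on WT CCI 35 and 19.87 on KO sham 31, each next to 19.91. The large minus small subunit difference was -0.048 on WT sham 3, where the next lowest was -0.0046.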

How the results depend on the processing

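Called values that were recomputed did not change sign in up to 12 other settings or with any of the 28 arrays left out. Not recomputed were the neighbours, Guf1, Gfm2, Spg7 and Iars2 by genotype, Polg and Ndufs1 in KO and Ndufs4 in WT. Without single arrays, the members called in WT ranged from 8 to 13 (higher 5 to 10, lower 2 to 5) and in KO from 4 to 13 (higher 2 to 6, lower 2 to 7). By genotype they ranged from 0 to 1 after sham and 1 to 2 over both procedures, stayed at 0 after injury and for the difference of injury changes, and ranged from 0 to 1 by sex. Of the 11 WT calls 7 were kept without any single array, and of the 10 KO calls 3. At an adjusted p under 0.01, 4 were called in WT (4 higher, 0 lower) and 2 in KO (1 higher, 1 lower). The shares were 5.06% in WT, against 11% of all rows, and 2.53% in KO, against 10.7%. By genotype over both 0 were called at that threshold, against 1.53% of all rows. Title numbers 1 to 24 alone gave 3 in WT (3 higher, 0 lower), 5 in KO (0 lower) and 0 by genotype over both. Those were 3.8% and 6.33% in WT and KO, where all rows had 8.95% and 11.4%, and 1.32% by genotype. Title numbers 25 to 42 alone gave 2 in WT (2 higher, 0 lower), 0 in KO (0 higher, 0 lower) and 0 by genotype. The 2 in WT were 2.53%, where all rows had 7.91% in WT, 3.89% in KO and 0.112% by genotype over both. Both ranges have fewer arrays. With the compared arrays only, 5 were called in KO (2 higher, 3 lower), which is 6.33% against 15.0% of all rows. Among rows above the median mean signal, 15 of 75 members were called in WT (5 lower) and 16 in KO (7 higher). The KO share was 21.3%, against 32.7% of all such rows, and in WT 32.3% of all such rows were called. By genotype 1 member was called after sham (1.33%, against 3.67%) and 2 over both (2.67%, against 7.61%). Centring gave 5 higher in WT, and 1 higher and 13 lower in KO, and moved the small subunit mean of KO CCI to -0.021. Quantile normalization gave 2 lower in KO and 1 by genotype after sham (1.27%, against 1.37% of all rows). Without the 7 arrays there was 1 lower in WT and there were 6 in KO (3 lower, with 7.59% called against 14.5% of all rows). Beyond fewer arrays or rows, the cause was not tested. Taking the dimmest row of a symbol gave no value, since each member has 1 row. No paired analysis was possible because each title number occurs once, so the groups share no replicate numbers. Signal at or below the median of the negative controls was found for 9 members, of which Mrpl41 was called, and members other than Mrpl42 lie below the controls' 95th percentile.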
